A study of Bos indicus and Bos taurus with 17 samples.

Results

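The genes described here are 7 keratins (KRT7, KRT8, KRT18, KRT19, KRT5, KRT14 and KRT15), the epithelial surface genes EPCAM and CDH1, and VIM, the vimentin gene. They were chosen by name as markers of luminal, basal and mesenchymal cells, and all 10 of 10 were found among the 21631 distinct gene names and 61264 entries of the expression table. RNA was sequenced from mammary epithelial cells (MEC) of bovine milk in 2 breeds, Kashmiri cattle and Jersey cattle, at 3 stages of lactation, D15 (March), D90 (July) and D250 (December). The labels name 17 samples, 3 in 5 of the groups and 2 in the Jersey D90 group, but the table holds 1 pooled value for each of the 6 groups. There is therefore no spread between cows, no interval and no test for any value below, and every difference is a description of 6 pooled values. Values are FPKM, fragments counted per kilobase of a transcript and scaled to the mapped fragments of a sample, and the reads behind each value are unknown. Where 3 values are given for a breed, they stand for early (D15), mid (D90) and late (D250) lactation, in that order.

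All cells came from milk and were captured on magnetic beads coated with an antibody against the KRT18 protein, so each group is bulk RNA of cells shed into milk and held by that antibody. In such samples fewer cells of a type and less RNA per cell cannot be told apart. Every sample of a stage carries the same month, so stage and season cannot be told apart either. The study's methods describe 3 cows of each breed sampled at every stage, all in lactation 3, and a full set of libraries in each group. The labels name one library fewer, in the Jersey D90 group, and give lactation number 2 or 3, with both numbers in 4 groups and only 2 in the Kashmiri D90 and Jersey D250 groups. Lactation number in the labels thus varies with stage, and which libraries entered each pooled value is not known.

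Keratins form the intermediate filaments of epithelial cells, and each filament is built from pairs of a type I and a type II keratin. In the mammary gland the luminal cells that secrete milk carry KRT8 with KRT18, together with KRT7 and KRT19, whereas the basal (myoepithelial) cells carry KRT5 with KRT14. KRT15 is a type I keratin usually listed with the basal group. EPCAM is a surface adhesion protein of epithelial cells, CDH1 encodes E-cadherin of the adherens junction, and vimentin forms the filaments of mesenchymal cells and leukocytes.

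The purity of the sorted cells was checked in the study by qPCR at D90. Its markers included KRT18 for epithelial cells, LSP1 for leukocytes and CD18 (gene ITGB2) for macrophages. Sorted cells were compared with unsorted milk somatic cells. The paper reports KRT18 and CSN2 higher, and LSP1, HBA and CD18 lower, in the sorted cells, and proposes that contamination by other cells was minimal. The ratios between genes within a group given below are a different measure. The primers for KRT18, LSP1 and ITGB2 are shown because the same transcripts are read in the FPKM table below. They are written 5′ to 3′ with the last 5 bases, where the polymerase extends, in capitals.
KRT18 forward: ggagagcaaaatccgGGAAC
KRT18 reverse: gggcgttgtccacagAATTT
LSP1 forward: ctccaacatggcactCACTG
LSP1 reverse: gtggctcttgacctgGAGAC
ITGB2 forward: caaactggcagaaagCAACA
ITGB2 reverse: tccaggaagactctgGAGGA

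The luminal keratins were highest at D15 and lowest at D90 in both breeds. KRT19, the shortest of the type I keratins, was the most abundant keratin in every group, with 3195, 295 and 1319 FPKM in Kashmiri cattle. The Jersey values of KRT19 were 1687, 38.2 and 835 FPKM. Jersey at D90 stood apart from the other groups, all of which were at least 295 FPKM. KRT7, a type II keratin of simple epithelia, followed the same order, with 381, 69.0 and 197 FPKM in Kashmiri cattle. The corresponding KRT7 values in Jersey cattle were 202, 13.3 and 88.6 FPKM. Both genes were higher in Kashmiri than in Jersey cattle at each day.

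KRT18, the type I keratin against which the beads were directed, was the lowest of the luminal keratins in every group. Kashmiri cattle had 51.3, 9.13 and 11.5 FPKM of KRT18, and Jersey cattle had 33.7, 1.59 and 4.51 FPKM. The D15 value was the highest of each breed by a wide margin, and D90 and D250 lay closer to each other than either lay to D15. KRT8, the type II partner of KRT18, is listed in an entry that also carries the name KRT4, a keratin of stratified epithelia, so its values may hold both transcripts. That entry had 55.5, 26.2 and 39.5 FPKM in Kashmiri cattle. Its Jersey values were 135, 6.07 and 13.8 FPKM, so that Jersey at D15 was the highest group and Jersey at D90 the lowest.

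The basal keratins KRT5 and KRT14 were low throughout, while KRT15 was higher than both in every group. KRT5, the type II keratin of basal cells, had 2.74, 6.03 and 5.03 FPKM in Kashmiri cattle. Its Jersey values were 6.67, 1.74 and 3.02 FPKM. The order was thus opposite in the breeds, with D15 lowest in Kashmiri and highest in Jersey cattle. KRT14, the type I partner of KRT5, had 0.150, 0.731 and 0.162 FPKM in Kashmiri and 0.424, 1.26 and 0.0528 FPKM in Jersey cattle. It reached 1 FPKM in 1 of 6 groups only, Jersey at D90. KRT15 had 58.8, 28.7 and 61.2 FPKM in Kashmiri and 54.1, 3.54 and 61.4 FPKM in Jersey cattle. Apart from D90 the KRT15 values of the breeds lay between 54.1 and 61.4 FPKM, a narrower range than that of any luminal keratin at those days.

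EPCAM and CDH1 were of moderate to low level and were lowest at D90 in both breeds. EPCAM is listed in an entry that also carries another gene name, so its values may hold more than the EPCAM transcript. The joined entry had 28.5, 10.2 and 31.1 FPKM in Kashmiri cattle. Jersey cattle had 16.6, 3.67 and 7.54 FPKM of it, lower than Kashmiri cattle at each day. CDH1 had 12.4, 5.05 and 31.2 FPKM in Kashmiri and 9.84, 5.46 and 12.4 FPKM in Jersey cattle. In both breeds its highest value was at D250, unlike the luminal keratins. At D90 the CDH1 values of the breeds were nearly equal, whereas KRT19 differed 7.72-fold between the same groups.

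VIM was highest at D90 in both breeds. Its values were 66.3, 454 and 286 FPKM in Kashmiri and 1006, 1110.3 and 722 FPKM in Jersey cattle. All 3 Jersey groups were above all 3 Kashmiri groups, and Kashmiri at D15 was the lowest group, the same group in which KRT19, KRT7 and KRT18 were highest. VIM was the most abundant of the 10 genes at D90 in both breeds and was second to KRT19 at D250 in both breeds and at D15 in Jersey cattle. In Kashmiri cattle at D15 it came after KRT19 and KRT7.

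**Figure D1:**
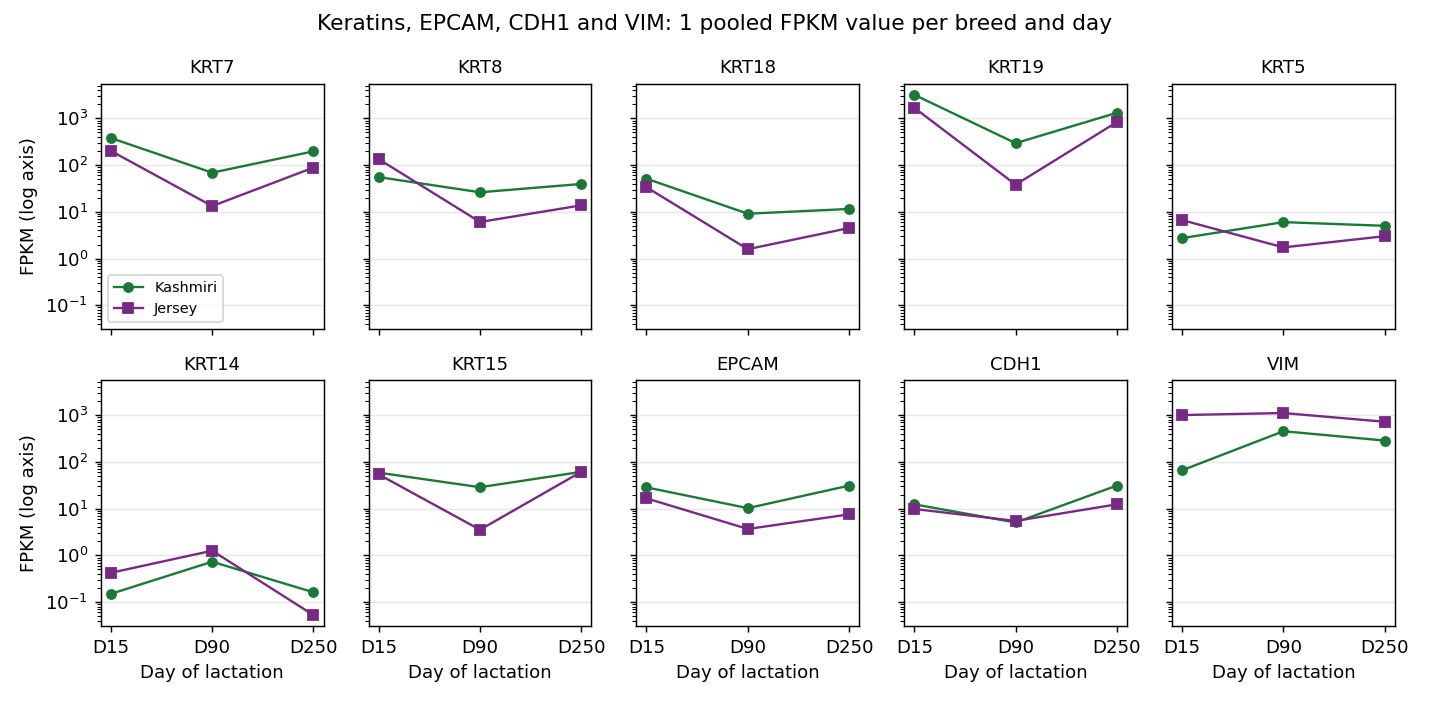
FPKM of each gene on a log axis against the day of lactation, with 1 pooled value per group, circles for Kashmiri and squares for Jersey cattle. KRT7, KRT8, KRT18, KRT19, KRT15, EPCAM and CDH1 have their lowest point at D90 in both breeds, and VIM is higher in Jersey than in Kashmiri cattle at each day.

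Because FPKM is a value per length, the 10 genes can also be ordered within a group. In Kashmiri cattle at D15 the order was KRT19, KRT7, VIM, KRT15, KRT8, KRT18, EPCAM, CDH1, KRT5 and KRT14. In that group VIM, KRT15, KRT8 and KRT18 lay between 51.3 and 66.3 FPKM, and no spread is at hand to tell these neighbours apart. In Jersey cattle at D90 the order was VIM, KRT19, KRT7, KRT8, CDH1, EPCAM, KRT15, KRT5, KRT18 and KRT14, with a 29.1-fold step between VIM and KRT19. KRT18 was thus below KRT5 in that group, the only one of the 6 in which this was so. The step was only 1.09-fold (1.59 and 1.74 FPKM), near the minimum of 1 FPKM, and no spread is at hand to tell these 2 genes apart either. Among all 21631 names KRT19 ranked 77, 246 and 80 in Kashmiri and 91, 2028 and 198 in Jersey cattle. KRT18 ranked 1587 in Kashmiri cattle at D15 and 9302 in Jersey cattle at D90.

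Changes between groups were set against all named genes. A gene was counted as past the limit when its log2 ratio, computed with 1 FPKM added to both values, was at least 2 in size (4-fold) and one of the groups reached 1 FPKM. The share of all tested genes past the limit in each direction is given as the background. The 3 comparisons of a breed share groups with each other and with the comparisons between breeds, so their counts are not independent.

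From D15 to D90 the luminal keratins were lower in both breeds. In Kashmiri cattle 3 of 9 tested genes were past the limit downward, against 5.16% of 11297 genes, and 1 was past it upward, against 2.34%. KRT19 was 10.8-fold lower, KRT18 5.61-fold lower and KRT7 5.52-fold lower, and the gene past the limit upward was VIM, 6.85-fold higher. The KRT8 entry was 2.11-fold lower and KRT15 2.05-fold lower, within the limit, while KRT5 was 2.20-fold higher. In Jersey cattle 5 of 10 tested genes were past the limit downward, against 3.78% of 11080 genes, and none upward, against 2.98%. The 5 were KRT19 (44.1-fold lower), KRT8 (22.2-fold), KRT18 (21.2-fold), KRT15 (15.3-fold) and KRT7 (15.2-fold). EPCAM was 4.52-fold lower, but its log2 ratio with 1 FPKM added was -1.91, just inside the limit. VIM was 1.10-fold higher.

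From D90 to D250 several of these genes were higher again. In Kashmiri cattle 2 of 9 genes were past the limit upward, against 0.859% of 11414 genes, and none downward, against 1.12%. They were CDH1, 6.18-fold higher, and KRT19, 4.47-fold higher. EPCAM was 3.04-fold and KRT7 2.86-fold higher, whereas KRT18 was only 1.26-fold higher. In Jersey cattle 3 of 10 genes were past the limit upward, against 3.72% of 10955 genes, and none downward, against 0.466%. KRT19 was 21.9-fold, KRT15 17.4-fold and KRT7 6.66-fold higher, while KRT18 was 2.83-fold and KRT8 2.27-fold higher. VIM was 1.59-fold lower in Kashmiri and 1.54-fold lower in Jersey cattle, and in Kashmiri cattle this direction turned when FPKM was rescaled to the group sum without milk protein genes (log2 ratio 0.03). The median over all genes was then 0.63 in the Kashmiri comparison.

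At D250 KRT18 was lower than at D15 in both breeds, whereas KRT15 was near its D15 level as deposited. In Kashmiri cattle 1 of 9 genes was past the limit downward, against 2.20% of 11487 genes, and 1 upward, against 1.85%. KRT18 was 4.44-fold lower at D250 and VIM 4.32-fold higher. The KRT18 value was at the edge of the limit, with a log2 ratio of -2.06 as deposited, -1.81 after upper-quartile rescaling and -1.10 after rescaling to the group sum. KRT7 was 1.93-fold lower and KRT8 1.40-fold lower, and the sign of both turned under the rescaling to the group sum (log2 ratios 0.06 and 0.51). Under that rescaling the median over all genes was 0.81 in this comparison. In Jersey cattle 2 of 9 genes were past the limit downward, against 3.42% of 11320 genes, and none upward, against 9.17%. KRT8 was 9.75-fold lower and KRT18 7.46-fold lower. KRT15 differed by 1.04-fold in Kashmiri and 1.13-fold in Jersey cattle between these days as deposited, but in Kashmiri cattle the rescaling to the group sum took its log2 ratio from 0.06 to 1.05. CDH1 was 2.53-fold higher at D250 in Kashmiri cattle, with a log2 ratio of 1.27 that became 2.23, past the limit, under the same rescaling, and 1.26-fold higher in Jersey cattle.

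Between the breeds VIM separated the groups most at D15 and the keratins most at D90. At D15, 1 of 9 genes was past the limit upward in Jersey over Kashmiri cattle, against 6.45% of 11202 genes, and none downward, against 2.12%. That gene was VIM, 15.2-fold higher in Jersey cattle. KRT8 and KRT5 were each 2.43-fold higher in Jersey cattle, whereas KRT19 and KRT7 were 1.89-fold lower. At D90, 3 of 10 genes were past the limit downward, against 5.17% of 11209 genes, and none upward, against 6.58%. They were KRT15 (8.12-fold lower in Jersey cattle), KRT19 (7.72-fold) and KRT7 (5.18-fold). KRT18 was 5.74-fold lower and KRT8 4.32-fold lower, with log2 ratios of -1.97 and -1.95 that lay just inside the limit and passed it with upper-quartile rescaling. KRT7 had a log2 ratio of -2.29 as deposited and -1.96 after rescaling to the group sum.

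At D250 none of 9 genes was past the limit in either direction, against 10.9% upward and 1.37% downward of 11642 genes. EPCAM came closest, 4.13-fold lower in Jersey cattle with a log2 ratio of -1.91, and passed the limit under both rescalings. KRT8 was 2.86-fold, KRT18 2.56-fold, CDH1 2.53-fold and KRT7 2.23-fold lower in Jersey cattle. KRT15 was the same in both breeds at this day (1.00-fold), although rescaling put it lower in Jersey cattle by up to 0.75 on the log2 scale. That was under the rescaling to the group sum, where the median over all genes was -0.74. VIM was 2.52-fold higher in Jersey cattle.

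**Figure D2:**
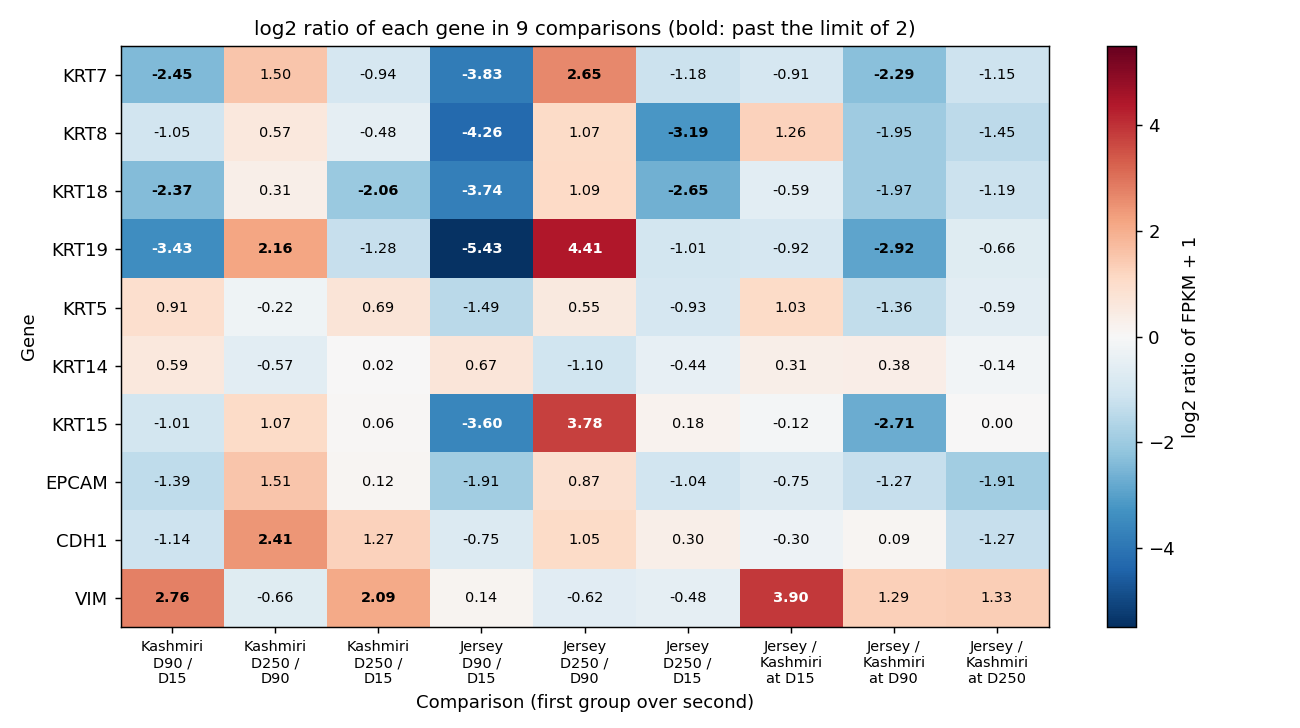
Heat map of the log2 ratio of FPKM + 1 for the 10 genes (rows) in the 9 comparisons (columns, first group over second), with blue for lower, red for higher and bold numbers past the limit of 2. The 5 bold values of the Jersey D90 over D15 column run from -5.43 for KRT19 to -3.60 for KRT15, and VIM has its largest value, 3.90, for Jersey over Kashmiri at D15.

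The D15 to D90 ratio of a gene can be set side by side in the breeds, although with 1 value per group the difference between breeds was not tested. The log2 ratio of KRT8 was -1.05 in Kashmiri and -4.26 in Jersey cattle, that of KRT15 -1.01 and -3.60, and that of KRT19 -3.43 and -5.43. For KRT5 it was 0.91 and -1.49, and for VIM 2.76 and 0.14. The ratios of CDH1 (-1.14 and -0.75) and EPCAM (-1.39 and -1.91) lay closer to each other.

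Ratios between genes within a group do not depend on how that group was scaled. The summed luminal keratins (KRT7, KRT8, KRT18 and KRT19) were above the summed basal keratins (KRT5, KRT14 and KRT15) in every group, by 59.7, 11.3 and 23.6 times in Kashmiri and by 33.6, 9.06 and 14.6 times in Jersey cattle. D90 was the lowest day in both breeds for these sums. With KRT8 and KRT18 alone as the luminal keratins the ratio was 1.73, 0.997 and 0.769 in Kashmiri and 2.75, 1.17 and 0.284 in Jersey cattle, so that the lowest day became D250, and the luminal sum against KRT5 and KRT14 alone gave 19.8 to 1273.

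KRT19 made up 85.3%, 67.9% and 80.7% of the summed FPKM of the 7 keratins in Kashmiri cattle. The Jersey shares were 79.6%, 58.2% and 83%. KRT18 made up between 0.448% (Jersey at D250) and 2.42% (Jersey at D90). KRT8 and KRT18 are partners in a filament, but the KRT8 entry may also hold KRT4. That entry over KRT18 was 1.08 in Kashmiri cattle at D15 and between 2.87 and 4.0 in the other 5 groups. The summed type I keratins exceeded the summed type II keratins in every group, from 2.11 times in Jersey cattle at D90 to 8.55 times in Jersey cattle at D250.

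VIM over KRT18 spanned the widest range of the ratios to KRT18. It was 1.29, 49.7 and 24.8 in Kashmiri and 29.9, 698 and 160 in Jersey cattle. D90 was the highest day in each breed, and each Jersey value was above the Kashmiri value of the same day. EPCAM over KRT18 ran only from 0.493 in Jersey cattle at D15 to 2.70 in Kashmiri cattle at D250, and CDH1 over KRT18 from 0.241 in Kashmiri cattle at D15 to 3.43 in Jersey cattle at D90.

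The other purity markers of the study were read beside KRT18. LSP1, an actin-binding protein of leukocytes, had 139, 254 and 68.6 FPKM in Kashmiri and 334, 170 and 149 FPKM in Jersey cattle. ITGB2, the CD18 chain of the leukocyte integrins, had 46.5, 153 and 64.1 FPKM in Kashmiri and 152, 179 and 164 FPKM in Jersey cattle. LSP1 was above KRT18 in all 6 groups, from 2.71 times in Kashmiri cattle at D15 to 107 times in Jersey cattle at D90. ITGB2 over KRT18 was 0.907 in Kashmiri cattle at D15 and between 4.52 and 113 in the other groups. KRT19, in contrast, exceeded LSP1 in 5 of 6 groups, and Jersey at D90 was the exception with 38.2 FPKM of KRT19 and 170 FPKM of LSP1.

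CSN2, the beta-casein gene and the other mammary marker of the check, is listed at 0 in 5 groups and at 1068 FPKM in Jersey cattle at D90. The paper itself reports CSN2 far above 1068 FPKM in both breeds at every stage, so the deposited entries do not give its level. GAPDH, a glycolytic enzyme of all cells, is also listed at 0 in 4 groups and at no more than 0.0328 FPKM in the others, so an entry at 0 in this table cannot be read as absence of the transcript. None of the 10 genes is listed at 0 in any group. The name HBA was not found, and HBB, the beta chain of haemoglobin, had at most 0.610 FPKM. Unsorted milk somatic cells were not analysed here, so the FPKM values cannot be set against the cells before capture.

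**Figure D3:**
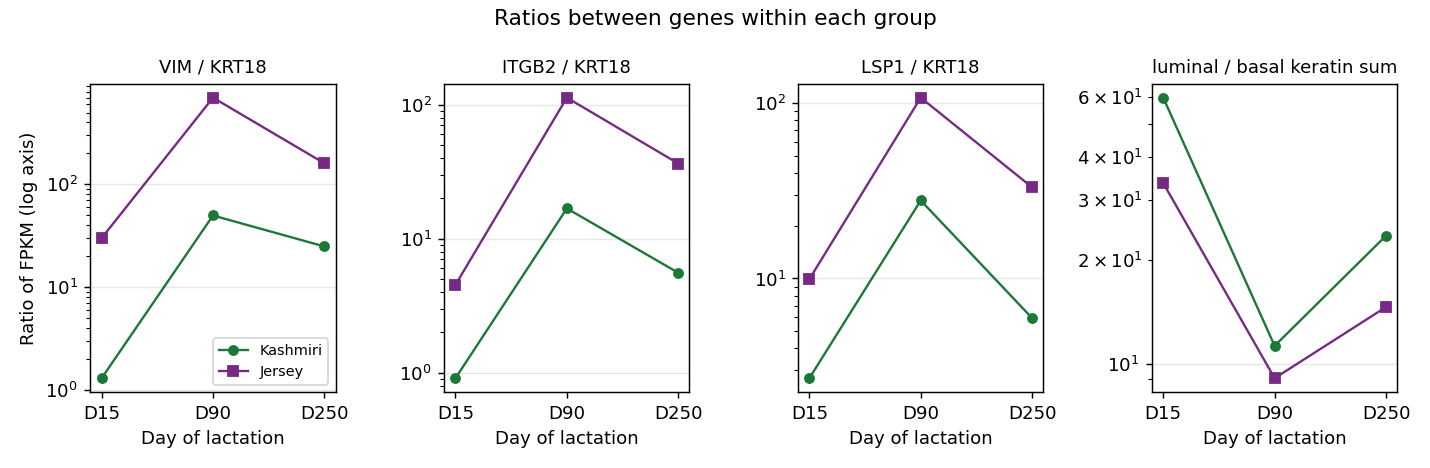
Ratios of FPKM within each group on log axes, with a separate axis range in each panel, for VIM, ITGB2 and LSP1 over KRT18 and for the luminal over the basal keratin sum. Circles are Kashmiri and squares Jersey cattle. The 3 ratios over KRT18 peak at D90 in both breeds, at 698 for VIM in Jersey cattle, and the luminal over basal ratio is lowest at D90 (11.3 and 9.06), an order that turned to D250 as the lowest day with KRT8 and KRT18 alone as luminal keratins.

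Genes of other epithelial structures were also mostly lower at D90. These were read as 3 lists, of desmosome and filament linker genes (12 of 14 found), epithelial adhesion genes (14 of 15) and epithelial transcription and splicing regulators (16 of 16). From D15 to D90, 14 of 34 tested list genes were past the limit downward and none upward in Kashmiri cattle, where 5.16% and 2.34% of all genes were. Their median log2 ratio was -1.57 against -0.01 over all genes. In Jersey cattle 10 of 30 were past it downward and none upward, against 3.78% and 2.98% of all genes, with a median of -1.23 against -0.07. A gene that reached 1 FPKM in a single group of a comparison had its direction fixed in advance. From D15 to D90 this held in both breeds for PPL, OVOL1, ESRP2, TFAP2A, TFAP2C and SPDEF, and for further list genes in each breed. Part of the list counts and medians given here therefore follows from the minimum. From D90 to D250, 6 of 36 in Kashmiri cattle were past the limit upward and none downward, against 0.859% and 1.12%, with a median of 1.32 against 0.03. The 6 became 16 of 37 under the rescaling to the group sum, where 455 of 11892 genes were past the limit upward. They became 10 of 36 under the upper quartile, where 141 of 11679 genes were. In Jersey cattle 6 of 25 were past it upward and none downward, against 3.72% and 0.466%, with a median of 1.24 against 0.15. From D15 to D250 few were past the limit. In Kashmiri cattle 1 of 38 was past the limit upward and 2 downward, against 1.85% and 2.20%, with a median of -0.12 against -0.04. Under the rescalings the list median was 0.83 and 0.13, against 0.81 and 0.20 over all genes. In Jersey cattle 1 of 31 was past it upward and 3 downward, against 9.17% and 3.42%, with a median of -0.41 against 0.07.

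Among the regulators, ELF5, a transcription factor of secretory luminal cells, was the most abundant, with 1799, 206 and 770 FPKM in Kashmiri and 338, 12.6 and 349 FPKM in Jersey cattle. SPDEF, a factor of secretory epithelia, had 34.5 FPKM in Kashmiri cattle at D15 and at most 1.47 FPKM in every other group. OVOL2, an epithelial repressor of mesenchymal genes, was 27.3, 2.48 and 12.1 FPKM in Kashmiri and 4.55, 0.249 and 4.94 FPKM in Jersey cattle. All 14 regulators tested in Kashmiri cattle and all 12 tested in Jersey cattle were lower at D90 than at D15. That direction was fixed in advance for genes that reached 1 FPKM at D15 but not at D90, as OVOL1 and TFAP2A did in both breeds. ELF3, ELF5 and EHF reached 1 FPKM on both days in both breeds, and in Jersey cattle no other tested regulator did. KLF5 and FOXA1, untested in Kashmiri cattle, were higher at D90 there (0.0132 to 0.0194 and 0.0240 to 0.0378 FPKM).

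Keratin filaments end at desmosomes, where desmoplakin (DSP), plakoglobin (JUP) and plakophilins bind them. DSP had 12.1, 1.03 and 11 FPKM in Kashmiri and 2.24, 0.400 and 2.33 FPKM in Jersey cattle. JUP had 24.5, 3.83 and 22.5 FPKM in Kashmiri and 12.8, 1.18 and 7.32 FPKM in Jersey cattle. PKP3 had 26.0, 2.82 and 8.27 FPKM in Kashmiri and 10.2, 0.426 and 2.08 FPKM in Jersey cattle. All of these were lowest at D90, whereas PLEC, a linker that many other cell types also use, was higher in Jersey than in Kashmiri cattle at each day (25.7, 16.1 and 17.7 against 7.59, 7.95 and 10.9 FPKM). In the adhesion list SPINT2, a membrane protease inhibitor, was highest on average, with 879, 123 and 261 FPKM in Kashmiri and 239, 24.8 and 180 FPKM in Jersey cattle. LAMB3, a laminin chain, went against the list, with 60.5 FPKM in Jersey cattle at D250 and at most 8.17 FPKM elsewhere.

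Between the breeds the list genes were mostly lower in Jersey cattle. At D15, 4 of 35 were past the limit downward and 1 upward, against 2.12% and 6.45% of all genes, with a median log2 ratio of -0.89 against -0.13 over all genes. At D90, 4 of 23 were past it downward and 1 upward, against 5.17% and 6.58%, with a median of -0.95 against -0.03. At D250 it was 1 of 37 in each direction, against 1.37% downward and 10.9% upward, with a median of -1.14 against -0.10. Here too the direction was fixed in advance for a gene that reached 1 FPKM in a single breed. The D250 count downward became 12 of 38 under the rescaling to the group sum and 6 of 37 under the upper quartile, with 1 upward in both. Among all genes 624 of 12101 and 334 of 11797 were past the limit downward under these rescalings, and 828 and 942 upward. The median of the adhesion list alone turned sign at D15 and D90 under the rescaling to the group sum, whereas those of the desmosome list and of the regulators kept theirs. The median over all genes turned there as well, from -0.13 to 0.22 at D15 and from -0.03 to 0.27 at D90.

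Markers of other cell types that the captured fraction could hold were read beside these values. The myoepithelial list reached 1 FPKM for 3 of 9 genes in any group, and its summed level ran from 1.99 FPKM (Kashmiri at D15) to 16.0 FPKM (Jersey at D15). The 3 were TAGLN (at most 12.5 FPKM, Jersey at D15), ACTA2 (at most 7.79 FPKM, Jersey at D250) and ACTG2 (at most 1.27 FPKM, Kashmiri at D90). TP63, the defining factor of basal cells, was at or under 0.0153 FPKM in every group. The fibroblast list reached 1 FPKM for 1 of 8 genes (DCN, 2.28 FPKM in Kashmiri cattle at D250), with a summed level of at most 2.46 FPKM, and COL1A1 and COL1A2 were listed at 0 in Kashmiri cattle at D15 and Jersey cattle at D250. VIM in these groups was between 66.3 and 1110.3 FPKM.

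Leukocyte lists, by contrast, were found at high level. The summed pan-leukocyte genes (6 of 6 found, LSP1 and ITGB2 among them) were 779, 2490 and 920 FPKM in Kashmiri and 2278, 2416 and 3243 FPKM in Jersey cattle. Relative to the summed 7 keratins this was 0.208, 5.72 and 0.563 in Kashmiri and 1.08, 36.8 and 3.22 in Jersey cattle. The neutrophil list (8 of 10 found) summed to 188, 502 and 617 FPKM in Kashmiri and 5029, 5669 and 14485 FPKM in Jersey cattle, and all 8 were past the limit upward in Jersey over Kashmiri cattle at each day (7 at D250 under either rescaling), where 6.45%, 6.58% and 10.9% of all genes were. The macrophage list (10 of 10 found) summed to 109, 483 and 491 FPKM in Kashmiri and 1014, 2145 and 1852 FPKM in Jersey cattle, of which CD68 and CD14 made up 996 and 636 FPKM in Jersey cattle at D250. Of 9 macrophage genes tested between breeds, 7, 4 and 1 were past the limit upward at D15, D90 and D250 and none downward. At D250 the macrophage genes did not move together, with 4 of 9 lower in Jersey cattle and a median log2 ratio of 0.10. Under the rescalings that median was -0.53 and -0.30, against -0.74 and -0.52 over all genes. The T and NK cell list (10 of 10 found) was highest in Kashmiri cattle at D90, with 1658 FPKM against 105 to 407 FPKM in the other groups. No gene of these 4 lists that was found is listed at 0 in any group. The part of these cell types in the lower keratin and higher VIM values of D90 and of Jersey cattle was not tested.

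**Figure D4:**
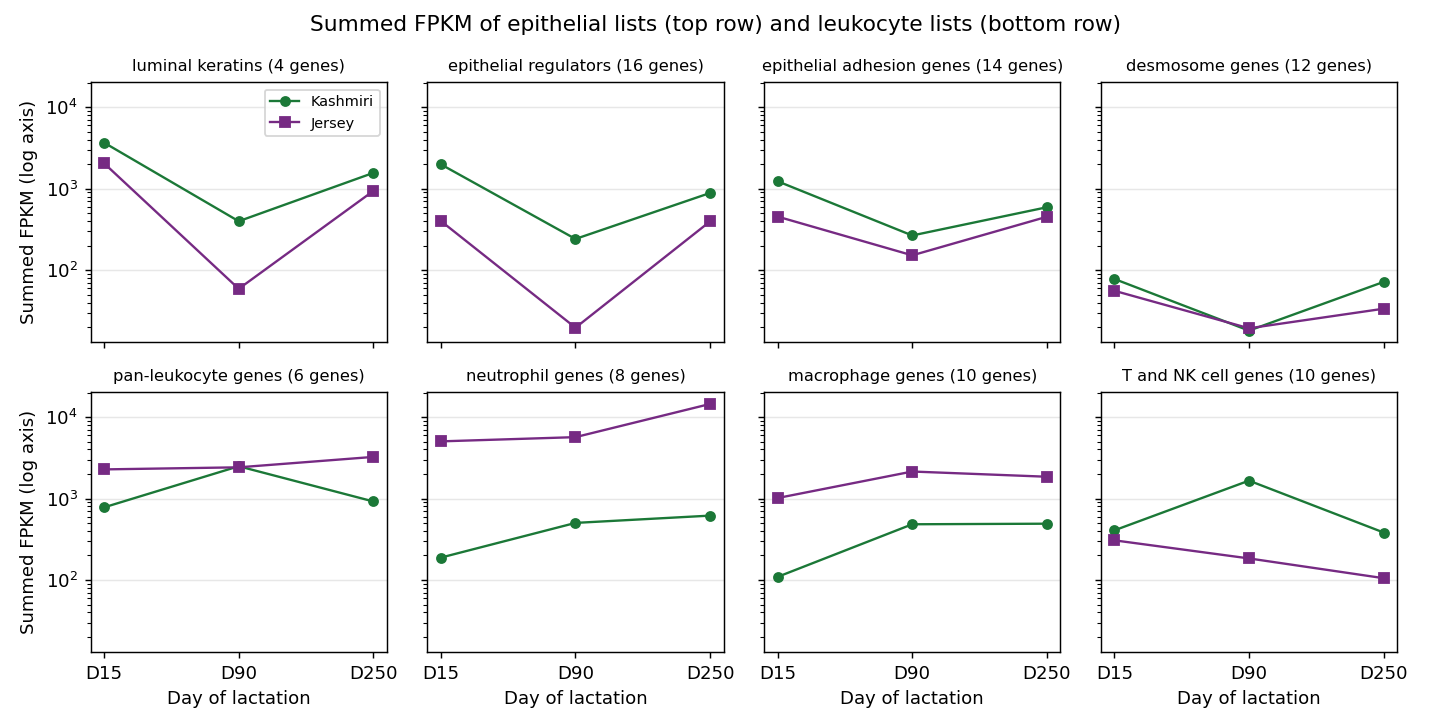
Summed FPKM of 4 epithelial lists (top) and 4 leukocyte lists (bottom) on a shared log axis against the day of lactation, circles for Kashmiri and squares for Jersey cattle, with the number of genes found in brackets. The epithelial lists are lowest at D90 in both breeds, the neutrophil list is higher in Jersey cattle at each day, and the T and NK cell list peaks at 1658 FPKM in Kashmiri cattle at D90.

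Regulators of the epithelial to mesenchymal transition were read because they act on CDH1 and VIM, in a list that also holds CDH2 and FN1, which are not regulators. Of the 8 genes of the list 5 reached 1 FPKM in a group, FN1 among them, and SNAI2 was at or under 0.0666 FPKM in every group. SNAI1, a repressor of CDH1, had 2.96, 4.35 and 2.76 FPKM in Kashmiri and 16.3, 26.9 and 80.0 FPKM in Jersey cattle. ZEB2, another such repressor, had 0.550, 2.16 and 6.92 FPKM in Kashmiri and 5.79, 22.9 and 53.0 FPKM in Jersey cattle. Whether SNAI1 or ZEB2 bears on the CDH1 values was not tested. Of the list, 3 of 3, 2 of 5 and 2 of 4 tested genes were past the limit upward in Jersey over Kashmiri cattle at D15, D90 and D250. None was past it downward, and 6.45%, 6.58% and 10.9% of all genes were past it upward. Other genes of the list went the other way. TWIST1 (at most 1.26 FPKM) and TWIST2 (under 1 FPKM) were lower in Jersey cattle at each day, and ZEB1 at D90 (2.46 against 2.65 FPKM). The neutrophil genes, like SNAI1 and ZEB2, were higher in Jersey cattle at each day. The part of neutrophils in the SNAI1 and ZEB2 values was not tested.

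Other keratins added at most 4.64% to the keratin sum outside Jersey cattle at D90, where they added more. The table names 40 keratin genes, 7 of them described above. Leaving out KRT4, 23 of the remaining 32 were under 1 FPKM in every group, 9 reached 1 FPKM and 3 reached 10 FPKM. KRT20 and KRT23, both among the 9, share 1 joined entry. Their summed level was 23.5, 21.2 and 56.0 FPKM in Kashmiri and 35.3, 10.9 and 13.5 FPKM in Jersey cattle, or from 0.622% (Kashmiri at D15) to 14.2% (Jersey at D90) of all keratin FPKM. The highest were KRT17, a keratin of basal and injured epithelia (in a joined entry, 21.7 FPKM in Jersey cattle at D15), KRT80 (14.5 FPKM in Kashmiri cattle at D250 and under 1 FPKM elsewhere) and KRT24 (10.01 FPKM in Kashmiri cattle at D250). KRT10, a keratin of the upper layers of skin, reached 8.33 FPKM and KRT78 reached 7.07 FPKM, while KRT1, the partner of KRT10 in skin, was at most 0.530 FPKM.

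The profiles of KRT18, KRT5 and VIM were compared with those of 7431 genes with at least 1 FPKM in all 6 groups, by the mean absolute difference of log2(FPKM + 1) after each gene's own mean was subtracted. Closest to KRT18 was CLDN3, a tight junction claudin, at 0.14, followed by GADD45GIP1 (0.26), FAM173A (0.27), SMCO4 (0.29) and a joined entry of BHLHA15 and LMTK2 (0.30). CLDN3 had 151, 27.1 and 41.7 FPKM in Kashmiri and 109, 4.79 and 14.7 FPKM in Jersey cattle. Closest to KRT5 were ASS1 (0.20), POLD1 (0.21), MAF (0.22), TYMS (0.22) and TMEM106C (0.22). Closest to VIM were IFI30 (0.24), a joined entry of TREM2 and TREML2 (0.26), CD74 (0.27), TNFAIP8L2 (0.28) and CTSB (0.29). IFI30, a lysosomal enzyme of antigen-presenting cells, had 20.8, 77.0 and 72.8 FPKM in Kashmiri and 302, 356 and 195 FPKM in Jersey cattle. Among the 10 genes themselves the closest pair was KRT8 and KRT18 (0.41), then KRT7 and KRT15 (0.49) and KRT5 and KRT14 (0.53), and the most distant pair was KRT19 and VIM (2.29). KRT14 was under 1 FPKM in all groups but Jersey at D90, so the added 1 FPKM flattens its profile. Its small distance to KRT5 does not show a shared pattern, since from D15 to D90 in Jersey cattle the log2 ratios were 0.67 for KRT14 and -1.49 for KRT5. With 6 points per gene these distances are a description.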

How the data were processed

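RNA of milk-derived MEC, captured with anti-KRT18 beads, was sequenced from stranded poly-A libraries. According to the study's methods the authors used Trimmomatic for trimming, Bowtie2 (per the labels) and TopHat for alignment to the UMD3.1 assembly, discarded reads that mapped to several positions, and quantified genes with Cufflinks and Cuffdiff. Near-identical keratin genes and pseudogenes can lose reads in that step, so keratin levels are uncertain. The deposited values are FPKM, 1 value for each breed and stage. The table headers call one breed Local, which was read as Kashmiri, the only other breed in the labels. No column was left unmapped (0 columns). Depth per sample is not given by the FPKM table.

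Among entries sharing a name that of highest mean was taken, and joined names were looked up by each part. Folds of single genes carry no pseudocount. Counts used log2(FPKM + 1), which understates changes of low genes, a limit of 2 and at least 1 FPKM in either group. The rule was to name all 10 genes, the 5 purity markers, from each list the most abundant gene and up to 3 with the largest ratios, the 5 highest other keratins, and the 5 profiles most like KRT18, KRT5 and VIM. It was not followed for every list. In the pan-leukocyte, neutrophil, T and NK cell and B cell lists the most abundant gene was not named. GAPDH, HBB, TP63, CD14, COL1A1, COL1A2, SNAI2, CASP14 and KRT1 lie outside that rule and were chosen after their values were seen. Members and lists were chosen with earlier results of these data known. No coordinates are given because the RefSeq gene table at hand is of another assembly than UMD3.1. The name joined with EPCAM is not reported here. The counting was checked on simulated data. Python 3.11.15, numpy 2.4.6 and pandas 2.3.3 were used. Alternatives were another pseudocount, minimum, limit, scaling and treatment of repeated names.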

Additional observations from a re-analysis of the deposited data

How the results depend on the processing

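No paired analysis was possible because the table holds 1 pooled value per group, and for the same reason no replicate could be left out. The depth behind a value is unknown, so no limit of detection can be given. Summing all entries of a repeated name (chosen after seeing the data for the epithelial lists) and a minimum of 0.01 FPKM moved none of the counts by over 1.5 times.

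For the 10 genes, a limit of 1 in place of 2 on the log2 scale gave 8 instead of 4 genes for Kashmiri D90 over D15, 5 instead of 2 for Kashmiri D250 over D90, 4 instead of 2 for Kashmiri D250 over D15, 7 instead of 3 for Jersey D250 over D90, 5 instead of 2 for Jersey D250 over D15, and 3, 8 and 6 instead of 1, 3 and 0 for Jersey over Kashmiri cattle at D15, D90 and D250. A pseudocount of 0.1 FPKM gave 5 and 1 instead of 3 and 0 at D90 and D250 between breeds. FPKM rescaled to the group sum without milk protein genes gave 4 instead of 2 for Kashmiri D250 over D90 and 3 instead of 0 between breeds at D250, and upper-quartile rescaling gave 1 instead of 2 for Kashmiri D250 over D15, 5 instead of 3 between breeds at D90 and 1 instead of 0 at D250. Under the sum rescaling the median over all genes lay between -0.74 and 0.81 on the log2 scale, depending on the comparison, and under the upper quartile between -0.52 and 0.20. The sum rescaling turned the sign of 7 ratios of the 10 genes (2 under the upper quartile), all of them within the limit as deposited. Among all genes tested it moved the balance of calls between breeds at D250 from 1272 higher and 159 lower to 828 and 624. For Kashmiri D250 over D90 it moved that balance from 98 and 128 to 455 and 41. Upper-quartile rescaling gave 942 and 334 between breeds at D250, 674 and 672 at D90, and 311 and 161 for Kashmiri D250 over D15. The share of all genes past a limit of 1, or with a pseudocount of 0.1 FPKM, is not given here. Counts at those settings therefore have no background.

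For the 3 epithelial lists, the limit of 1 gave 23, 26 and 11 genes instead of 14, 6 and 3 in Kashmiri cattle (D90 over D15, D250 over D90, D250 over D15), 22 and 17 instead of 10 and 6 in Jersey cattle (D90 over D15, D250 over D90), and 18, 12 and 23 instead of 5, 5 and 2 between breeds at D15, D90 and D250. A pseudocount of 0.1 FPKM gave 21 for Kashmiri D250 over D90, 22 for Jersey D90 over D15, 13 for Jersey D250 over D90, and 9, 9 and 11 between breeds. The sum rescaling gave 16 for Kashmiri D250 over D90, and 3 and 13 between breeds at D15 and D250, and the upper quartile gave 10 for Kashmiri D250 over D90 and 7 between breeds at D250. Between breeds at D15 the sum rescaling moved all genes from 723 higher and 237 lower to 908 and 126. As for the 10 genes, the list counts at a limit of 1 or a pseudocount of 0.1 FPKM have no background here.

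The luminal over basal ratio was 1.73, 0.997 and 0.769 in Kashmiri and 2.75, 1.17 and 0.284 in Jersey cattle with KRT8 and KRT18 as the only luminal keratins, and 1273, 59.1 and 302 in Kashmiri and 290.1, 19.8 and 307 in Jersey cattle with KRT5 and KRT14 as the only basal ones. The cause was not tested for any of these shifts beyond the genes left out.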

Other observations

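Genes of milk secretion and of skin were read beside the keratins. Of 8 milk secretion genes 7 were found, and FABP3, a fatty acid carrier of secretory cells, was the most abundant with 10560.5, 2159 and 6720 FPKM in Kashmiri and 2454, 164 and 1529 FPKM in Jersey cattle at D15, D90 and D250. From D15 to D90 all 6 tested genes of that list were past the limit of 2 on the log2 scale downward in Kashmiri cattle, and 4 of 6 in Jersey cattle, where 5.16% and 3.78% of all genes were. In the skin and cornification list 6 of 9 genes were found and 2 reached 1 FPKM, KRT10 and TGM3. TGM3, a transglutaminase of the hair follicle and epidermis, had 51.8, 92.8 and 61.2 FPKM in Kashmiri cattle and 599 and 818 FPKM at D15 and D90 in Jersey cattle, and is listed at 0 in Jersey cattle at D250. KRT1 and CASP14, other genes of cornifying skin, were at or under 0.530 FPKM in every group. The B cell list (6 of 6 found) summed to between 8.44 and 78.0 FPKM, highest in Kashmiri cattle at D90.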
